A study of Mus musculus with 6 samples.

Results

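Noncanonical Wnt signalling was followed through 10 genes that act at the cell surface or just beneath it: the receptor genes Ror1, Ror2 and Ryk, the planar polarity genes Vangl1, Vangl2, Celsr1 and Prickle1, and the Dishevelled genes Dvl1, Dvl2 and Dvl3. They were picked by name, for their place in the pathway, out of 36699 rows of the authors' deposited table. Earlier results of these data were known when they and the gene lists below were chosen. Shares called are therefore set beside the background as descriptions only. Each was found in 1 row that names it alone, and all 10 had been tested by the authors. The cells were A2Lox.cre mouse embryonic stem cells with a doxycycline-inducible Flag-Lef1 transgene, Lef1 being a DNA-binding partner of beta-catenin. They were kept on embryonic fibroblasts of FVB mice, freed of these and grown in suspension as embryoid bodies, which were harvested on day 3. The plus_Dox group (3 libraries) received doxycycline for the last 24 h, and the minus_Dox group (3 libraries) did not. Since both groups are the same line with the same transgene, the effect of the drug and that of Lef1 cannot be told apart, and only 1 line was used. The authors' deposited table gives 1 FPKM per gene and group (fragments scaled for transcript length and library size), with no value for a single library and no sequencing depth. The question that the comparison addresses is which genes respond to induced Lef1.

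Wnt ligands signal through beta-catenin in the canonical branch, where Lef1 acts, and independently of it in the noncanonical branches, which steer cell shape, movement and orientation. Ror1, Ror2 and Ryk are single-pass receptors for Wnt ligands such as Wnt5a, with Ror2 best known for the Wnt5a response. Vangl and Prickle proteins gather on one side of a cell, opposite Frizzled and Dishevelled, with Celsr on both, to set planar polarity, which in the gastrulating embryo drives convergent extension. Dishevelled proteins pass the signal on in all branches, canonical and noncanonical.

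The table's own checks and its background come first. By the authors' deposited table, Lef1 rose from 7.56 to 51.0 FPKM (6.75-fold, 95% interval 5.21 to 8.74), in a row that sums transgene and endogenous transcripts. At a q-value under 0.05, the authors' deposited table calls 2210 of 18114 tested rows, or 12.2%, with 8.98% higher and 3.22% lower in plus_Dox. The groups were not centred on each other: the median log2 fold of the 12240 tested rows with at least 1 FPKM was 0.20. Subtracting it (median-ratio scaling) left 618 rises and 1087 falls, against 1626 and 584 as deposited. Folds also rose with the GC content of the transcript, and a smooth trend on GC content and length was therefore removed as a further alternative, which left 208 rises and 159 falls among 16658 rows, 2.2% in all. Of the cell type markers, the primitive streak list moved most, with 8 rises in 10 tested genes and a summed level of 24.0 FPKM in minus_Dox and 126 FPKM in plus_Dox. Of 13 tested pluripotency markers 4 rose, 1 fell and 8 did not pass. By the authors' deposited table Tdgf1 (31.3 to 190 FPKM), Nanog (28.6 to 109.7 FPKM), Dppa5a (363 to 524 FPKM) and Utf1 (260.0 to 362 FPKM) rose, Sox2 fell (56.2 to 30.9 FPKM), and Pou5f1 did not pass (820 and 1510 FPKM, q = 0.055). After median-ratio scaling 2 of the 13 were higher (Tdgf1 and Nanog) and 2 were lower (Sox2 and Fgf5). After trend removal 2 were higher (Tdgf1 and Nanog) and 1 was lower (Sox2). The rises of Dppa5a and Utf1 passed in neither. The untested Dnmt3b is listed at 0 in minus_Dox and at 427 FPKM in plus_Dox in the authors' deposited table. Its status there is HIDATA and not OK, so no change is read from these values.

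Of the 10 genes, Ror2 rose, Ror1 fell and 8 did not pass the authors' test. The share called was 20%, beside the background of 12.2% (6.67% at a q-value under 0.01, which both calls also meet). The median log2 fold was 0.36, beside 0.20 for all tested rows with a finite fold. After removal of the GC and length trend the medians were alike, -0.019 for the 10 genes and -0.021 for all rows with a value. In sign alone 8 of the 10 were higher in plus_Dox, 6 after median-ratio scaling and 4 after removal of the GC and length trend (Vangl2 and Celsr1 turn sign with the first step, Dvl1 and Dvl3 with the second). After median-ratio scaling the same 2 genes were called, beside 9.56% of all rows (3.47% higher, 6.1% lower). After trend removal Ror2 alone was called, beside 2.2% (1.25% higher, 0.954% lower). In the authors' deposited table the levels spanned 0.962 to 28.1 FPKM in minus_Dox and 1.19 to 57.8 FPKM in plus_Dox. FPKM is a level per length, so genes can be ranked by it. In minus_Dox the order from the highest was Ryk, Dvl2, Dvl1, Vangl2, Prickle1, Dvl3, Vangl1, Ror1, Celsr1 and Ror2. In plus_Dox it was Dvl2, Ryk, Dvl1, Vangl2, Prickle1, Dvl3, Vangl1, Ror2, Celsr1 and Ror1. Only the places of Ryk and Dvl2 at the top and of Ror1 and Ror2 at the bottom were exchanged. Single levels carry no spread in the table, so neighbours in these orders could not be tested.

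**Figure D1:**
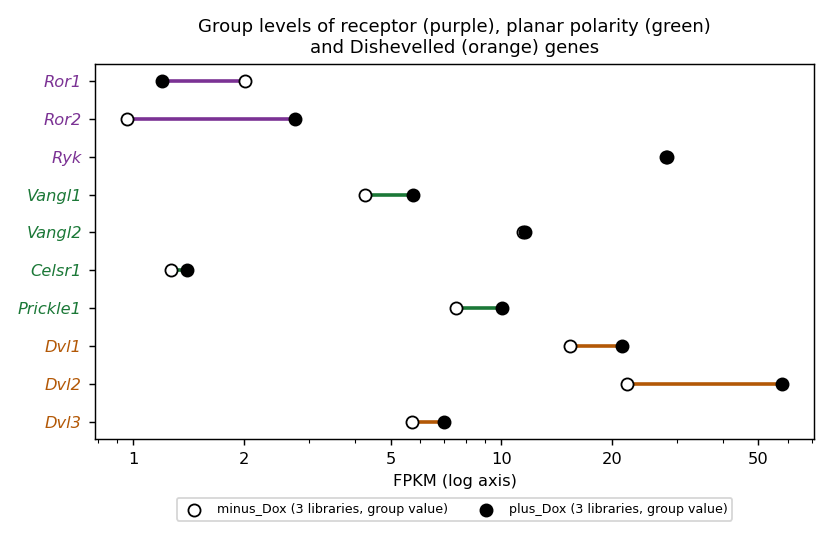
FPKM of the 10 genes (log axis) as the authors' group value for minus_Dox (open) and plus_Dox (filled), with a line joining the 2 values of a gene. Ror2 lies at 0.962 and 2.75 FPKM and Ror1 at 2.01 and 1.19 FPKM, so their order turns, while Ryk and Vangl2 show nearly coincident points. Dvl2 spans the widest distance in FPKM, 21.9 to 57.8.

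Ror2, the tyrosine kinase-like receptor that mediates Wnt5a responses, was the rise. In the authors' deposited table it stood at 0.962 FPKM in minus_Dox and 2.75 FPKM in plus_Dox, a 2.86-fold difference (95% interval from 2.15 to 3.80, log2 fold 1.51, SE 0.21, q = 2.09e-10). The SE is the one implied by the authors' statistic, and whether it reflects the spread of Ror2 itself between libraries cannot be seen. Its position on mm9 (the genome build that the submitters' notes list) is chromosome 13, 53204680 to 53381493, and it shares this locus with no other row. Among tested rows Ror2 moved from percentile 34.4 of level in minus_Dox to 45.9 in plus_Dox, so it remained a gene of low to middle level. The log2 fold was 1.31 after median-ratio scaling and 1.10 after removal of the GC and length trend, and it passed in both (q = 7.75e-08 and 4.22e-05).

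Ror1, the close relative of Ror2, went the other way. In the authors' deposited table it fell, being at 2.01 FPKM in minus_Dox and 1.19 FPKM in plus_Dox, which is 0.594 of the first level (95% interval from 0.445 to 0.794, log2 fold -0.75, SE 0.21, q = 0.0071). Its row covers chromosome 4 from 99768395 to 100117370 in mm9 and shares that locus with the predicted genes Gm12701 and Gm12706, neither of which was tested. The log2 fold was -0.95 after median-ratio scaling, where it passed (q = 0.00035), and -0.66 after trend removal, where it did not (q = 0.073). The rise of Ror2 thus passed in all 3 scalings. Median-ratio scaling lowers every log2 fold by the same 0.20 and keeps the SE, so it could only enlarge the fall of Ror1. In trend removal, the step that could weaken this fall, it did not pass.

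The opposite calls changed the balance of the pair. The ratio of Ror2 to Ror1 in FPKM was 0.479 in minus_Dox and 2.30 in plus_Dox. The log2 folds of the genes differed by 2.26, with a 95% interval of 1.68 to 2.85 that treats their errors as independent. A scaling shift common to all genes cancels in this difference. The GC and length trend does not, as it gave 0.42 for Ror2 and -0.09 for Ror1. After its removal the log2 folds were 1.10 and -0.66, and Ror1 did not pass. Their sum changed less, from 2.97 to 3.94 FPKM. In these bulk samples, fewer cells that express a receptor and less of its RNA per cell cannot be told apart. Fibroblasts, which can carry Ror receptors and on which the stem cells had been grown, were followed by 17 markers. Of the 15 tested, 3 rose (Tagln, Acta2 and Twist1) and none fell, and the summed level of the list was 155 FPKM in minus_Dox and 269 FPKM in plus_Dox, most of it Tagln. In the authors' deposited table the collagen and Prrx1 markers were low in both groups: Col1a1 (0.888 and 1.32 FPKM), Col3a1 (0.341 and 0.437 FPKM) and Prrx1 (0.125 and 0.124 FPKM) did not pass. Other members were higher, with Fbln1 at 15.2 and 18.2 FPKM and Thy1 at 11.9 and 16.6 FPKM, which did not pass, and the untested Fn1 at 10.8 and 13.0 FPKM by the authors' deposited table. None of the 17 was at 0 in either group. The share of fibroblast markers called was 20%, beside 12.2% of all tested rows. After median-ratio scaling 2 of the 15 were higher (Tagln and Acta2) and 1 was lower (Pdgfra). Pdgfra stood at 1.41 and 0.988 FPKM in the authors' deposited table. Removing the GC and length trend left 2 higher (Acta2, q = 0.017, and Tagln, q = 0.042) and none lower. As deposited, the list had a median log2 fold of 0.35, beside 0.20 for all tested rows with a finite fold. Whether the list moved as a set was not tested. The rises of the streak markers and of Tagln, Acta2 and Twist1 accompany that of Ror2, and their part in it was not tested.

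The promoters of the pair are shown because the genes moved in opposite directions while Lef1, which binds DNA at the core letters CTTTGA or CTTTGT, was induced. The sequences are the 250 bases before the start site, from RefSeq on GRCm38.p6, 5′ to 3′ on the gene's own strand, with matches to the core on either strand in capitals.
Ror2, chr13:53286125-53286374, minus strand: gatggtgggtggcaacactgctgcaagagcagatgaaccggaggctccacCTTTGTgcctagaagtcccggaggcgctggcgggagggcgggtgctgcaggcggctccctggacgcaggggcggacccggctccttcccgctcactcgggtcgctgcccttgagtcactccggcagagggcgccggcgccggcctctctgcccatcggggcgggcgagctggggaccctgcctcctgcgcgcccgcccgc
Ror1, chr4:100095541-100095790, plus strand: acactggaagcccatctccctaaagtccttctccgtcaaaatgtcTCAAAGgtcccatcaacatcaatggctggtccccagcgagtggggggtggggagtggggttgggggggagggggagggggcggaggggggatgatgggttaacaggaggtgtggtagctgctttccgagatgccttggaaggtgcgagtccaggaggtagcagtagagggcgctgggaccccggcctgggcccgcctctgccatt
Each window held 1 match. In Ror2 it is CTTTGT in the direction of the gene, beginning 200 bases before the start site, and in Ror1 it is CTTTGA on the opposite strand (read as TCAAAG), beginning 205 bases before it. The promoter table had 9 windows for 8 of the 10 genes, Celsr1 and Vangl1 being unmatched, and these 2 were the only windows with a match, 22.2% of 9. Of all 32851 windows of the same length in the table, 27.6% held a match. None of the 9 windows held a longer form (the core followed by T or A: CTTTGAT or CTTTGTT, and CTTTGAA or CTTTGTA, on either strand), which 14.8% of all windows did. GC content was 73.2% in the Ror2 window and 62.4% in that of Ror1, above the 52.4% median of all windows. A match describes the letters of a window only. The gene that rose and the gene that fell both carry one, and the windows of the 6 other matched genes carry none. The share of windows with a match was no higher than among all windows, and a link between match and call was not tested.

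Ryk, a Wnt receptor with an inactive kinase domain, was the highest of the receptor genes and was level between the groups. The authors' deposited table gives 28.1 FPKM in minus_Dox and 27.9 FPKM in plus_Dox (log2 fold -0.01, SE 0.18, q = 1.00). The 95% interval of the fold ran from 0.773 to 1.28, which leaves out a change of the size seen in Ror2 in either direction. Ryk (chromosome 9, 102737246 to 102810635 in mm9) stood above Ror1 and Ror2 in each group.

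**Figure D2:**
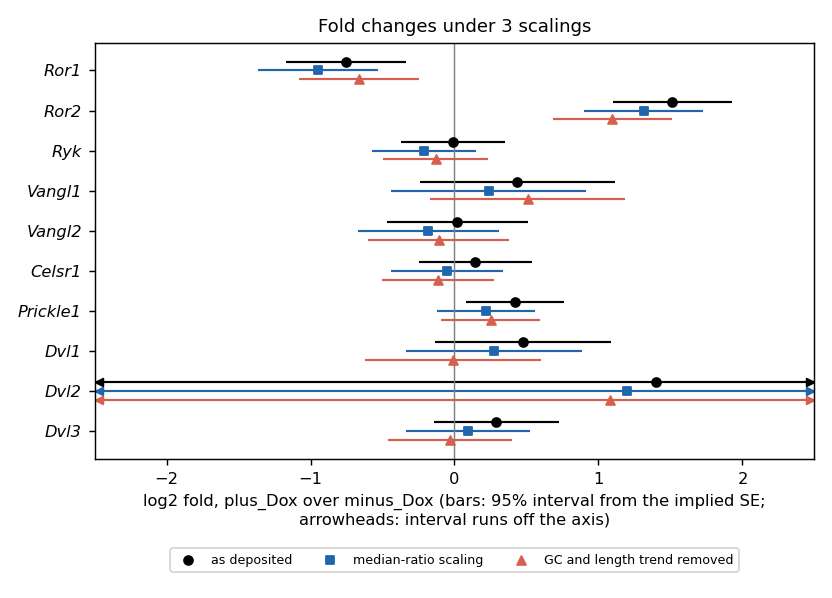
Log2 fold of plus_Dox over minus_Dox for the 10 genes as deposited (black), after median-ratio scaling (blue) and after removal of the GC and length trend (red), with 95% intervals from the implied SE. Ror2 lies to the right of 0 and Ror1 to the left in all 3, the intervals of Ryk, Vangl1, Vangl2, Celsr1, Dvl1 and Dvl3 cross 0, and those of Dvl2 run off the axis. Prickle1 lies above 0 as deposited (interval 0.08 to 0.76), and its intervals after both corrections cross 0.

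None of the planar polarity genes passed the authors' test. Vangl2, the membrane protein whose loss in the mouse leaves the neural tube open, stood at 11.4 FPKM in minus_Dox and 11.6 FPKM in plus_Dox by the authors' deposited table, a log2 fold of 0.02 (SE 0.25; 95% interval of the fold 0.722 to 1.42). Its paralogue Vangl1 stood at 4.25 and 5.75 FPKM by the authors' deposited table, a log2 fold of 0.44 (SE 0.35; q = 0.52). Vangl2 thus exceeded Vangl1 by 2.69 times in minus_Dox and 2.02 times in plus_Dox, and the difference of their log2 folds, -0.42, had a 95% interval from -1.26 to 0.42. The Vangl2 row covers chromosome 1 from 173931090 to 173958575 and the Vangl1 row chromosome 3 from 101960623 to 102010189, both in mm9. The untested predicted gene Gm16160 shares the locus of Vangl1.

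Prickle1, a cytoplasmic partner of Vangl, came nearest to the threshold among the genes without a call. It stood at 7.51 FPKM in minus_Dox and 10.05 FPKM in plus_Dox by the authors' deposited table, 1.34-fold higher (log2 fold 0.42, SE 0.17, q = 0.099). A q-value threshold of 0.1 would call it, with 16.3% of all tested rows. After median-ratio scaling its log2 fold was 0.22 (q = 0.57). Celsr1, the large adhesion receptor of the polarity complex, was low, at 1.27 and 1.40 FPKM by the authors' deposited table, a log2 fold of 0.15 (SE 0.20; q = 0.79). Both lie on chromosome 15 in mm9, Celsr1 from 85729187 to 85864207 and Prickle1 from 93329544 to 93426322.

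The Dishevelled genes gave no call, although Dvl2 had a fold nearly as large as that of Ror2. The authors' deposited table lists Dvl2 at 21.9 FPKM in minus_Dox and 57.8 FPKM in plus_Dox, a log2 fold of 1.40, with a q-value of 1.00. The statistic behind it, -0.13, implies an SE of 10.6 in log2 units and a 95% interval of the log2 fold from -19.4 to 22.2, so the table cannot say whether Dvl2 changed. The other 9 genes had SEs of 0.17 to 0.35. Among the 8486 tested rows that reached 5 FPKM in either group the median SE was 0.215, and 32 had a larger SE than Dvl2. The Dvl2 row gives its locus as chromosome 11 from 69814096 to 69828913 in mm9, which is also the locus of Acadvl, a fatty acid oxidation gene. Acadvl stood at 8.95 and 12.8 FPKM by the authors' deposited table, a log2 fold of 0.51 (SE 0.58; q = 0.71). Of the 2649 rows at this level that share a locus with another tested row, 10.4% had an SE above 1, against 1.42% of the remaining rows. The part of the shared locus in the Dvl2 value was not tested. The sources used here do not give how reads were divided between overlapping genes.

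**Figure D3:**
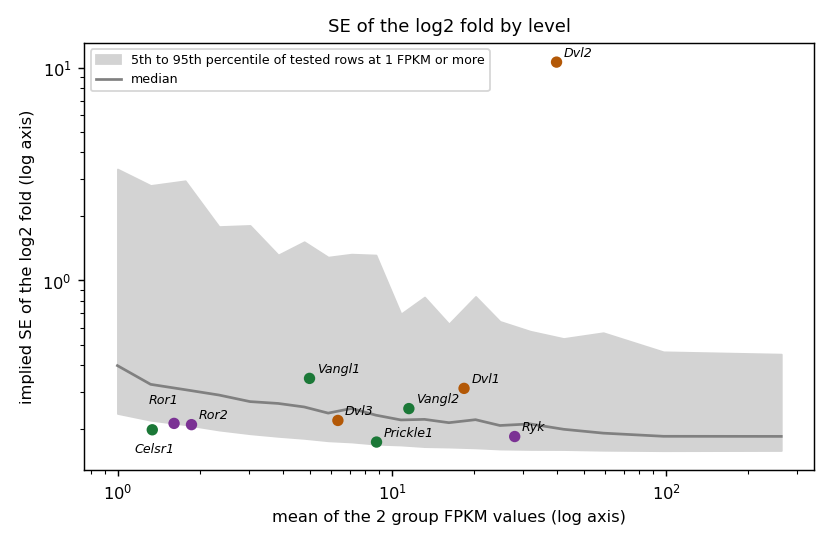
Implied SE of the log2 fold against the mean of the 2 group FPKM values (both log axes), for the receptor (purple), planar polarity (green) and Dishevelled (orange) genes. The grey band holds the 5th to 95th percentile of tested rows with at least 1 FPKM, in 20 bins of level. Dvl2, with an SE of 10.6, lies far above the band, and the other 9 lie at 0.17 to 0.35.

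Dvl1 stood at 15.3 FPKM in minus_Dox and 21.3 FPKM in plus_Dox by the authors' deposited table, a log2 fold of 0.48 (SE 0.31; q = 0.39). Dvl3 stood at 5.71 and 6.99 FPKM by the authors' deposited table, a log2 fold of 0.29 (SE 0.22; q = 0.48). Their log2 folds after trend removal were -0.01 and -0.03. The 3 genes together summed to 42.9 FPKM in minus_Dox and 86.1 FPKM in plus_Dox, a ratio of 2.01 that rests on Dvl2: without it the sums were 21.0 and 28.3 FPKM, a ratio of 1.34. Dvl2 made up 51.0% of the summed level in minus_Dox and 67.1% in plus_Dox, Dvl1 35.7% and 24.7%, and Dvl3 13.3% and 8.11%. These shares carry the uncertainty of Dvl2, while Dvl1 exceeded Dvl3 in both groups, by 2.69 and 3.05 times. In mm9 Dvl1 lies on chromosome 4 from 155221510 to 155237471, in a locus shared with the untested taste receptor gene Tas1r3. Dvl3 lies on chromosome 16 from 20511205 to 20532593, in a locus shared with the predicted gene Gm16618, which was tested and lay near 0.1 FPKM in both groups.

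The genes differed in transcript composition, which moved with the folds of all genes. The GC content of the longest transcript ran from 47.2% in Ror1 to 60.6% in Dvl1, with a median of 54.2%, beside 50.3% for tested rows with at least 1 FPKM. Transcript length ran from 2852 nt in Ryk to 10879 nt in Celsr1. From these properties alone the trend gave log2 folds between -0.09 and 0.48 for the 10 genes. It gave 0.42 for Ror2 and -0.09 for Ror1. Within groups of 579 or 580 rows of like GC content, Ror2 and Dvl2 lay above the 95th percentile of the log2 fold, Ror1 lay below the 5th, and 7 lay between. For Ror2 that range was 0.10 to 1.08 and for Ror1 -0.50 to 0.66.

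**Figure D4:**
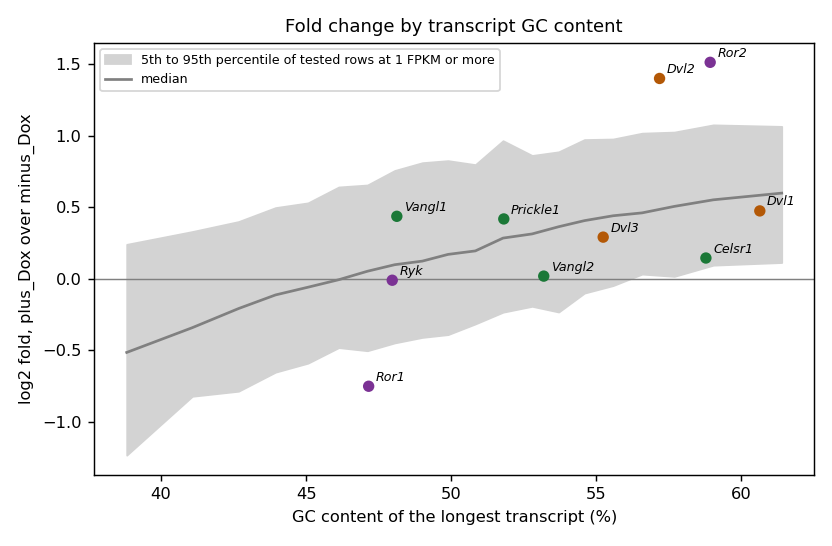
Log2 fold of plus_Dox over minus_Dox against the GC content of the longest transcript, with receptor genes in purple, planar polarity genes in green and Dishevelled genes in orange. The grey band is the 5th to 95th percentile and the line the median of tested rows with at least 1 FPKM, in 20 bins of GC content. The band climbs with GC content, and Ror2 (1.51), Dvl2 (1.40) and Ror1 (-0.75) lie outside it.

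Among the ligands of the noncanonical branch, 7 were listed, 6 were tested, 4 rose and none fell, with a median log2 fold of 1.07. The share called was 66.7%, beside 12.2% of all tested rows. Wnt11, which drives convergent extension movements, went from 1.44 to 3.55 FPKM by the authors' deposited table, 2.46-fold higher (log2 SE 0.29, q = 0.00030). Wnt5b went from 0.339 to 3.17 FPKM with a wide error by the authors' deposited table, a log2 fold of 3.22 (SE 1.01; q = 0.017). The other rises, Wnt4 (0.469 to 0.845 FPKM) and Wnt9b (0.0173 to 0.0790 FPKM), lay under 1 FPKM in the authors' deposited table and are named after their values were seen. Wnt5a, the main Ror2 ligand, also named after its value was seen, stood at 0.419 and 0.434 FPKM by the authors' deposited table, a log2 fold of 0.05 (SE 0.51; q = 1.00). After trend removal none of the 6 ligands passed, but the log2 folds of those that had risen stayed positive, at 2.66 for Wnt5b (q = 0.20), 1.86 for Wnt9b (q = 0.062), 0.89 for Wnt11 (q = 0.075) and 0.52 for Wnt4 (q = 0.51).

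Other receptors and coreceptors mostly stayed without a call: of 11 tested, none rose and 1 fell, with a median log2 fold of 0.03. That is 9.09% called, beside 12.2% of all tested rows. The fall was in Fzd7, a Frizzled receptor that serves both branches, from 44.0 to 30.3 FPKM by the authors' deposited table, a log2 fold of -0.54 (SE 0.18; q = 0.027), and it passed after trend removal as well (-0.77, q = 0.0019). Of 12 tested genes listed with the planar polarity core beside the 10, none fell, and the median was 0.16. The 2 rises (16.7% called) include no core component in a row of its own. They were Gipc1, a trafficking adaptor that binds Vangl2 (44.1 to 76.1 FPKM by the authors' deposited table, a log2 fold of 0.79 with SE 0.16, q = 5.48e-05), and a row that joins Prickle4 with Tomm6, a mitochondrial import gene (116 to 206 FPKM), in which the 2 cannot be separated. With the trend removed, the log2 fold of Gipc1 was 0.14 (q = 1.00). Of 10 tested effectors and Fat-Dachsous genes 1 rose and none fell, 10% called and near the share of all tested rows. The rise was in Fjx1, the kinase that modifies Fat cadherins (9.24 to 15.2 FPKM by the authors' deposited table, q = 0.0012). It did not pass after trend removal (log2 fold 0.21).

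**Figure D5:**
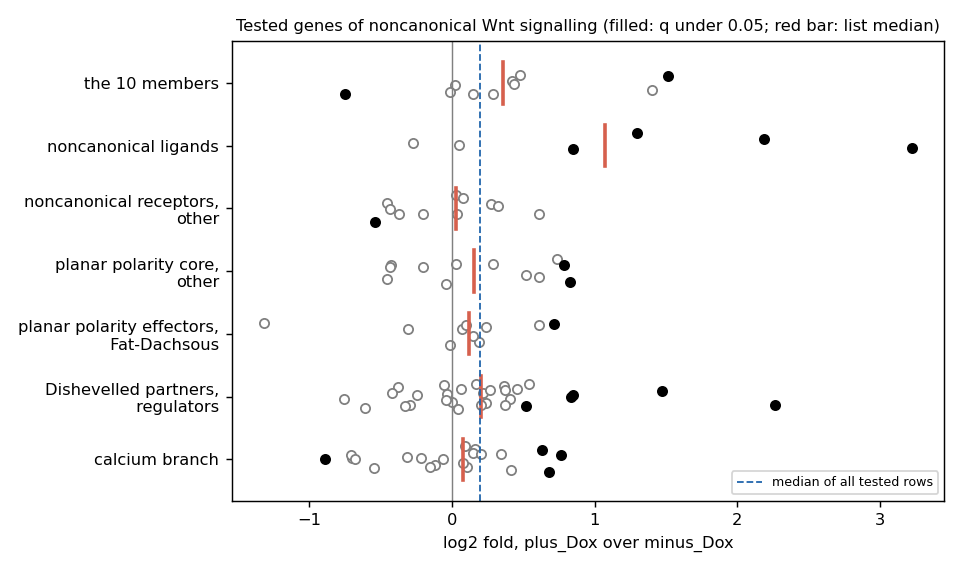
Log2 fold of plus_Dox over minus_Dox for each tested gene of 6 lists around noncanonical Wnt signalling and for the 10 genes, 1 point per gene, filled where q is under 0.05. Red bars mark list medians and the dashed line the median of all tested rows (0.20). The ligand median lies at 1.07, and the medians of the other 5 lists lie between 0.03 and 0.20.

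Of 29 tested partners and regulators of Dishevelled, 5 rose, none fell and 24 did not pass, with a median log2 fold of 0.20. The share called was 17.2%, beside 12.2% of all tested rows. Axin2, a scaffold that binds Dishevelled and a feedback target of beta-catenin, went from 1.11 to 5.32 FPKM by the authors' deposited table, a log2 fold of 2.26 (SE 0.32; q = 4.11e-10). Nkd1, an inhibitor that binds Dishevelled, went from 0.534 to 1.48 FPKM by the authors' deposited table, a log2 fold of 1.47 (SE 0.23; q = 7.05e-08). Both passed after trend removal. The Dishevelled antagonist genes Dact2 (7.65 to 13.6 FPKM), Dact3 (5.48 to 7.85 FPKM) and Tmem88 (14.4 to 25.9 FPKM) rose in the authors' deposited table and did not pass after trend removal.

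In the calcium branch list 3 of 21 tested genes rose and 1 fell, with a median of 0.08. The share called was 19%, beside 12.2% of all tested rows. After median-ratio scaling 1 was higher and 4 were lower. All rows turned in the same way, from 1626 rises and 584 falls to 618 and 1087. The rises in the authors' deposited table were in Nfatc4, a calcium-responsive transcription factor gene (7.16 to 12.2 FPKM), Prkcz, an atypical protein kinase C gene (9.40 to 15.1 FPKM), and Camk2b, a calmodulin-dependent kinase gene (5.28 to 8.17 FPKM). The fall was in Camk2a, named after its value was seen, which lay under 1 FPKM in the authors' deposited table (0.608 to 0.329 FPKM). After median-ratio scaling Nfatc4 passed as higher, Prkcz (q = 0.24) and Camk2b (q = 0.23) did not pass, and Camk2a, Nfatc3, Ppp3cb and Prkcb passed as lower, the last 3 being named after their values were seen.

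Counting each row of these 6 lists once, 86 were tested, 15 rose, 2 fell and 69 did not pass, so that 19.8% were called beside 12.2% of all tested rows. After median-ratio scaling 10 were higher and 7 lower, beside 3.47% and 6.1% of all rows. After trend removal 4 passed, Axin2 and Nkd1 higher and Fzd7 and Camk2a lower, beside 2.2% of all rows.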

How the data were processed

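RNA sequencing of 6 libraries was grouped by sample title. Per the submitters' processing notes, the tools were Cuffdiff, Cufflinks 2.0.2, TopHat2 2.0.8, Picard and Bowtie and the build mm9, with no roles stated. The deposited table holds FPKM values, 1 per group, the authors' p-values and q-values, and, per the file headers, a test statistic and a log2 fold change, both handled as a score because placeholders stand where a group is at 0. No column holds a single library and no depth is given, so no model was fitted here and the authors' test was used as deposited. The labels do not say whether libraries came from separate cultures, so the spread may be technical.

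The SE is the size of the log2 fold divided by that of the statistic. Deposited p-values equalled two-sided normal tails of the statistic within 2.78e-06. Of the rows, 18114 were tested, and 284 of these have no finite fold. For each gene, the longest transcript of the GENCODE vM21 basic set supplied its GC content and length (91.96% of tested rows, all 10 genes). The trend was a least-squares fit of cubic splines with 6 knots on tested rows with at least 1 FPKM. The shifted statistics were adjusted by Benjamini-Hochberg over all rows with a value. This step was tested on simulated data with noise of SD up to 1, a cap set after a run with the full implied SEs had failed. The simulation therefore does not cover rows of larger SE, such as Dvl2, which the unweighted fit includes. Analysis used Python 3.11.15, pandas 2.3.3 and scikit-learn 1.9.0.

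The 10 genes and the lists were chosen with earlier results of these data known. Outside the 10, the rule named, per list, up to 5 calls of largest absolute log2 fold among genes reaching 1 FPKM in the higher group, or the 2 tested genes of highest mean FPKM where a list had no such call, and Lef1 as a check; calls in marker lists are given mainly as counts. No genes of like pattern were sought, as 2 group values give no pattern. A further list of the pathway is not reported here.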

Additional observations from a re-analysis of the deposited data

How the results depend on the processing

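The 2 calls among the 10 genes (Ror2 higher, Ror1 lower) were also made at a q-value threshold of 0.01 and after median-ratio scaling. Such scaling could only enlarge the fall of Ror1. A minimum of 1 FPKM and leaving out rows that join several genes or have an SE above 1 could not change these calls. Both genes reach 1 FPKM, have rows of their own and have SEs of 0.21. At a threshold of 0.1 there were 3 calls. At least 2-fold left 1 call (Ror2), trend removal left 1 (Ror2), and a minimum of 5 FPKM left 0, since both Ror genes lie below it. Of the 7 genes at that level, 1 (Prickle1) had an unadjusted p under 0.05 in the authors' test (Cuffdiff). The calls of all tested rows numbered 1208 at a threshold of 0.01, 491 at 2-fold and 367 after trend removal, against 2210. Those of the 6 lists numbered 10, 5 and 4 under the same settings and 11 with at least 5 FPKM, against 17. The log2 ratio of the summed Dishevelled level was 1.00, or 0.80 after median-ratio scaling and 0.43 without Dvl2, a step chosen after its SE was seen, as was the limit on the SE. On the log2(FPKM + 1) scale the difference was 0.93 for Ror2 and -0.46 for Ror1, since this scale shrinks changes of low genes. No paired analysis was possible because the table has no columns of single libraries. For the same reason no replicate could be left out.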

Other observations

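Beside Dvl2, several polarity genes had a large implied SE at a level of at least 1 FPKM, so the authors' test says little of them. These were Wdpcp (1.26 and 1.32 FPKM in minus_Dox and plus_Dox, SE 15.2), Prickle3 (1.49 and 2.13 FPKM, SE 4.97), Celsr2 (5.52 and 5.63 FPKM, SE 3.58), Fuz (7.31 and 11.2 FPKM, SE 2.56) and Invs (1.40 and 1.13 FPKM, SE 1.23) in the authors' deposited table. They are named after their values were seen. Wnt5b, with an SE of 1.01, is the 1 gene of the 6 lists that passed with an SE above 1. Axin1, the scaffold of the beta-catenin destruction complex, is listed at 18.2 and 25.3 FPKM in the authors' deposited table, but its test is marked as failed.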
